A study of Homo sapiens with 10 samples.

Results

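The genes of the G2 phase and of mitosis were followed in 2 human prostate cancer cell lines as a list of 40 genes, chosen by name, among the 14313 genes that could be tested. All 40 had a probe set assigned to a single gene symbol and passed the filter on dim probe sets. Total RNA from 10 samples was hybridised to Affymetrix expression arrays, 1 array per sample. The lines were LNCaP, which responds to androgens and was derived from a lymph node metastasis, and DU145, which grows without androgens and came from a brain metastasis. The LNCaP groups were cells with the EOS vector, selected in puromycin and then treated with ribavirin (1 array), the same kind of EOS-selected cells without ribavirin (2 arrays), and cells with the PGK control vector (2 arrays). DU145 had the same 3 groups with the same numbers of arrays. In the EOS vector, enhancers of OCT4 and SOX2 drive GFP and puromycin resistance, so that puromycin enriches cells in which those enhancers are active. In the control vector the ubiquitous PGK promoter drives the same genes. Ribavirin is a nucleoside analogue used as an antiviral drug, and the labels tie its array in each line to the EOS sample numbered 2. The labels give neither its dose and time nor a clone or a culture for any sample, and the p-values below thus reflect array-to-array spread that could be technical. The labels state culture in puromycin for EOS-transduced cells and do not state it for PGK cells.

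Cells enter mitosis when cyclin B and CDK1 form an active kinase, which CDC25 phosphatases, PLK1 and Aurora kinases help to switch on. Chromosomes then condense, attach through kinetochores to the spindle and are held until the spindle checkpoint is satisfied, after which the anaphase-promoting complex with CDC20 marks securin and cyclin B for destruction and the cell divides by cytokinesis. Many of these genes are transcribed together late in the cell cycle, under the DREAM complex in resting cells and B-MYB and FOXM1 in dividing cells, and their RNA levels are widely used as a measure of proliferation in prostate cancer.

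The promoters of such genes are known for 2 short elements, the cell cycle genes homology region (CHR), bound by DREAM and MuvB complexes, and CCAAT boxes bound by NF-Y. RefSeq promoter windows (GRCh38.p14, 250 bases before to 50 bases after the transcript start) were found for 34 of the 40 genes, with 41 windows in all. No window was matched for AURKA, TPX2, UBE2C, BIRC5, TTK and RACGAP1. A CHR element, searched as TTTGAA on either strand or as TTCGAA, occurred in 30 of the 41 windows (73.2%), against 16.4% of all 35116 promoter windows. An NF-Y box, searched as CCAAT on either strand, occurred in 32 of the 41 windows (78.0%), against 34.6% of all windows. At least 2 NF-Y boxes were found in 46.3% of the windows of these genes and in 10.8% of all windows, and both kinds of element in 61.0% and 6.38%. These shares describe letters in a window and not binding. The 120 bases before the transcript start are shown for 7 genes, both B-type cyclins and the other genes named in every comparison below, to show how these elements are placed, 5′ to 3′ on the strand of the gene, with CHR and NF-Y matches in capitals.
CCNB1, chr5:69167030-69167149, plus strand: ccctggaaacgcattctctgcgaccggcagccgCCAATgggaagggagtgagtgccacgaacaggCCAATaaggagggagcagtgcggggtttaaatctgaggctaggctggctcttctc
CCNB2, chr15:59105026-59105145, plus strand: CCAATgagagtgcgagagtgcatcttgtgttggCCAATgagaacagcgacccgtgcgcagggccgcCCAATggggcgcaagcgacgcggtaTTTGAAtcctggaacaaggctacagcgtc
CDK1, chr10:60778358-60778477, plus strand: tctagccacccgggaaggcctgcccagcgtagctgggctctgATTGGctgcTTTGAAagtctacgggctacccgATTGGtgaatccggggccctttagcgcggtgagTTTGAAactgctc
PLK1, chr16:23678769-23678888, plus strand: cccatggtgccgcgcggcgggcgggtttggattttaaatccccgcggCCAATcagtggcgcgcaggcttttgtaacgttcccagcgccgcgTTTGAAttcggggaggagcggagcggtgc
CDC20, chr1:43358861-43358980, plus strand: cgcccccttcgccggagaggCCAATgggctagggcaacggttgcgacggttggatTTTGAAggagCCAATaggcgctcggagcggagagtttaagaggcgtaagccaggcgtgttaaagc
TOP2A, chr17:40417897-40418016, minus strand: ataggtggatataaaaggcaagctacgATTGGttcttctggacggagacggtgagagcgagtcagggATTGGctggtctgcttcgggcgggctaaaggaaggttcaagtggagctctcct
MKI67, chr10:128126424-128126543, minus strand: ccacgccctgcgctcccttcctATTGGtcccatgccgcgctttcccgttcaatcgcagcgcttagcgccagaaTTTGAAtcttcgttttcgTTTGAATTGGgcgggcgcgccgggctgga

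In these stretches CCNB1 and TOP2A carried 2 NF-Y boxes each and no match to the CHR letters searched. CCNB2 had 3 NF-Y boxes, at 120, 87 and 54 bases before the start, and a CHR element 29 bases before it. CDK1 carried NF-Y boxes at 78 and 46 bases and CHR elements at 69 and 13 bases before the start. PLK1 had 1 element of each kind, at 73 and 29 bases. In MKI67 the CHR element at 29 bases and the NF-Y box at 24 bases overlap, which is why they read as 1 run of capitals. A CHR element lay between 60 bases before the start and the end of the window in 61.0% of the windows of the listed genes, against 5.44% of all windows, a boundary chosen after the positions had been seen.

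**Figure D1:**
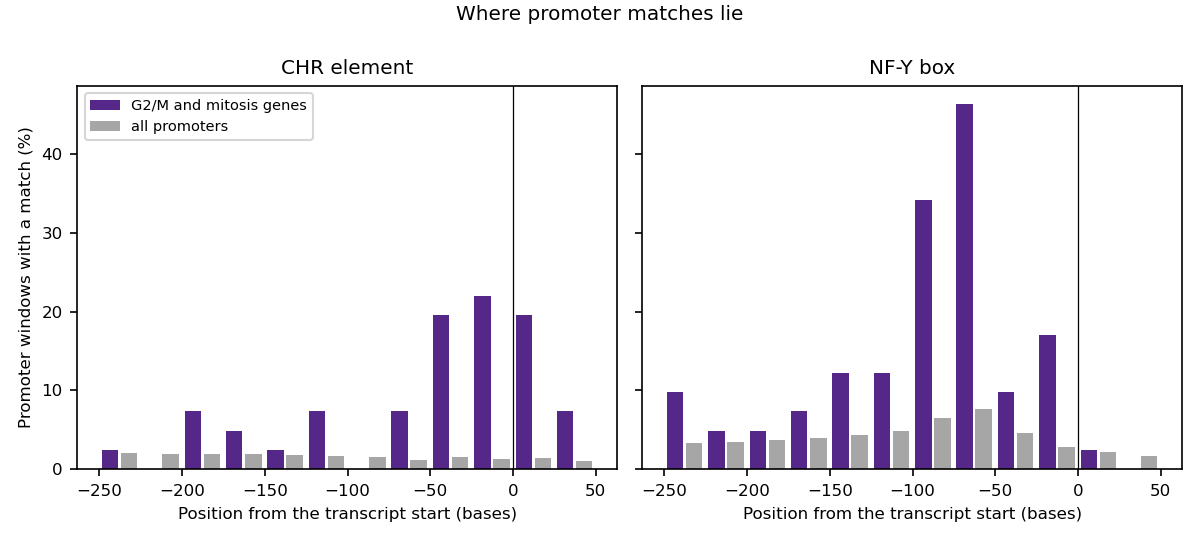
The share of promoter windows with a match in each bin of 25 bases (vertical axis, percent) is plotted against distance from the transcript start (horizontal axis, bases) for the CHR element and the NF-Y box, with purple bars for the listed genes (41 windows) and grey bars for all 35116 windows. CHR matches of the listed genes peak at 22.0% of windows in the last 25 bases before the start, where all windows are at 1.26%.

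Values are log2(intensity + 16) after each array was brought to the same trimmed mean. On this scale 1 unit is a doubling for a bright gene and more than a doubling for a dim one. Differences are log2 differences of group means ± the moderated standard error of limma, with 2 arrays a group unless said otherwise. Each gene was read from 1 probe set, and levels are compared only within a gene. The threshold was an adjusted p of 0.05 over all 14313 genes. The array files split by number: the 4 arrays numbered 1 were deposited with a trimmed mean intensity of 500 each, and the 6 arrays numbered 2 with 96.6 to 127. Signal at the 3′ end of ACTB over that at its 5′ end, a measure of RNA length after amplification, was 1.24 to 1.51 for number 1 and 3.20 to 3.99 for number 2. Each EOS and PGK group holds both numbers, whereas both ribavirin arrays are numbered 2. The line labels were borne out by markers: the summed intensity of the 5 luminal markers measured (KLK3, KLK2, TMPRSS2, HOXB13 and FOLH1) was 45507 to 74153 in the 5 LNCaP arrays, against 67.2 to 142 in the 5 DU145 arrays.

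Among the 10 arrays, LNCaP PGK 2 stood apart. It held the highest LNCaP value for 30 of the 40 genes (75%), while it was highest for 22.3% of all genes tested. Relative to LNCaP PGK 1, it was higher for 36 of the 40 genes, with a median difference of 0.41. The same array had the lowest LNCaP values of KLK2 (12.55, against 13.94 to 14.22 in the other LNCaP arrays), TMPRSS2 (11.79, against 12.67 to 13.40) and HOXB13 (11.30, against 11.75 to 11.96). Of the other luminal markers, KLK3 was at 15.01 in it, against 14.80 to 15.33, and FOLH1 at 8.87, against 8.85 to 9.07. For EOS against PGK, the list medians and the genes named throughout are therefore also given without that array. In DU145, EOS 1 held the highest value for 19 genes (47.5%), against 21.6% of all genes. The ribavirin array was highest for 15 (37.5%), against 24.4% of all genes, whereas PGK 1 was lowest for 18 (45%), against 19.1%. LNCaP EOS 1 held the lowest LNCaP value for 18 genes (45%), against 18.5% of all genes.

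**Figure D2:**
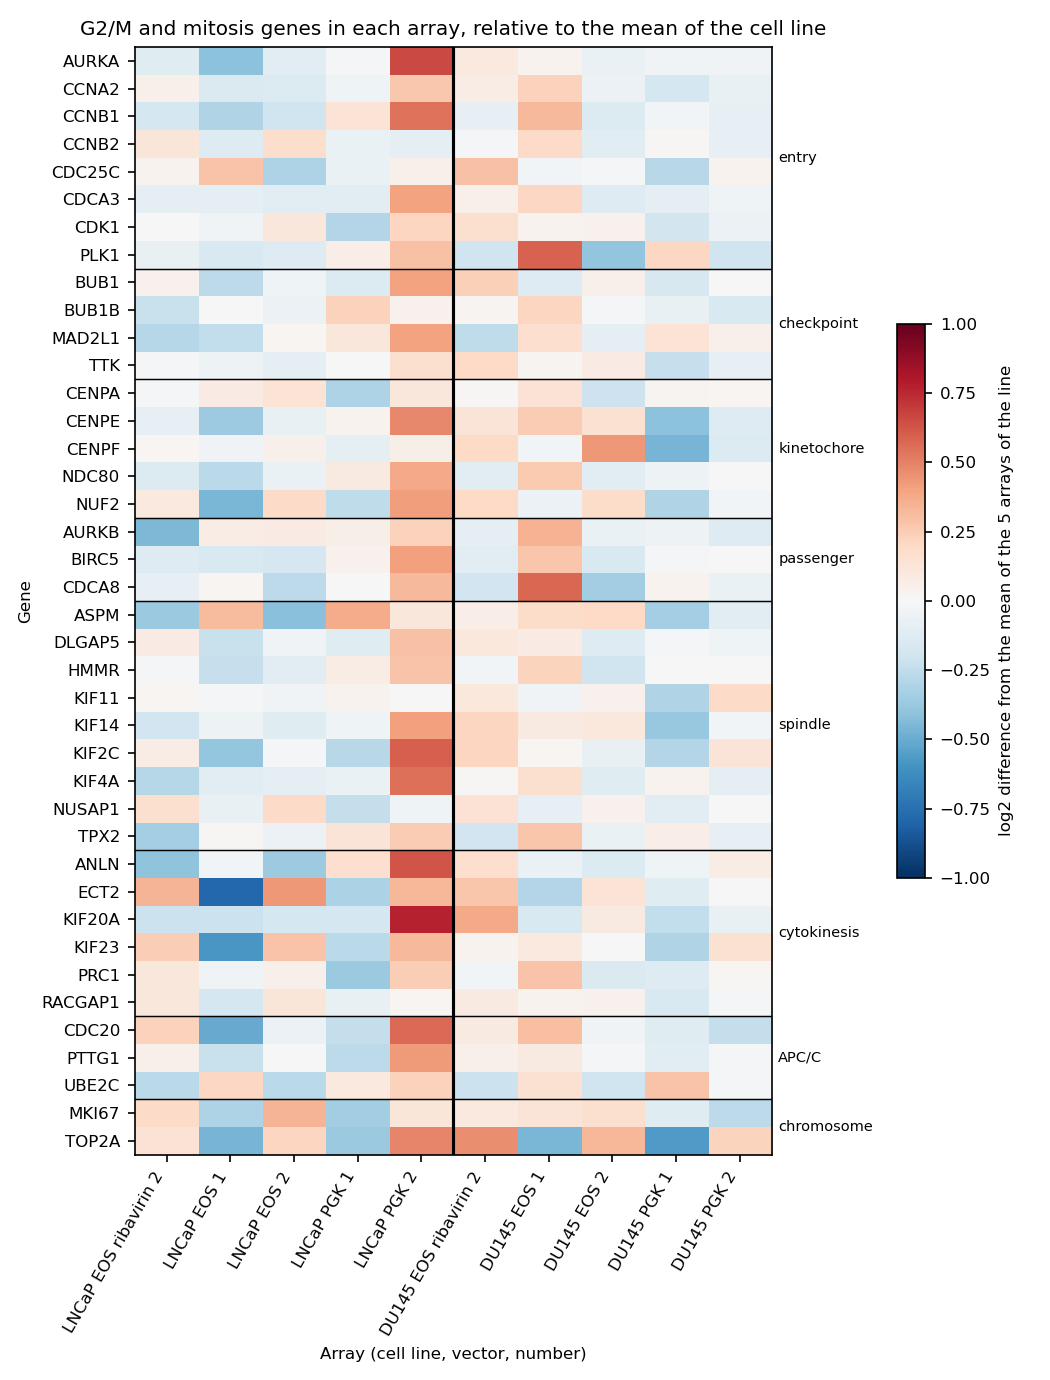
Each row is 1 of the 40 genes, grouped by role as named at the right, and each column is 1 array; colour gives the log2 difference from the mean of the 5 arrays of the same line, red for higher and blue for lower. The column of LNCaP PGK 2 is the most uniformly red, with the highest value in 30 of 40 rows.

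EOS selection was set against the PGK control in LNCaP first, to see whether cells chosen for active OCT4 and SOX2 enhancers differ in division genes. The median difference of the 40 genes was -0.22, with 8 above 0 and 32 below it, while the median of all genes was 0.05. With limma, none of the 40 genes passed the adjusted threshold, as none of all genes did (0%). At an unadjusted p under 0.05 there were 3 of 40 genes (7.5%), ANLN, CCNB1 and AURKA, against 4.16% of all genes. With the replicate number as a block there were again 0 at the adjusted threshold, and 10 of 40 (25%) at the unadjusted one, against 9.06% of all genes. Both EOS arrays lay below both PGK arrays for 17 genes (42.5%), against 10.6% of all genes, and above both for 0 of the 40, against 18% of all genes. For 1 gene, an exact permutation test of 2 arrays against 2 reaches no lower than p = 0.333.

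Among the entry kinases and cyclins, CCNB1, the cyclin that activates CDK1 at mitosis, had values of 12.58 and 12.68 in the LNCaP EOS arrays, against 13.01 and 13.42 in the LNCaP PGK arrays. Both EOS values were lower than both PGK values, and the difference was -0.59 ± 0.20 (adjusted p = 0.999, limma). AURKA, the Aurora kinase of the spindle poles, had 11.14 and 11.44 in the LNCaP EOS arrays, against 11.54 and 12.21 in the LNCaP PGK arrays. Its EOS arrays were again the lower ones, with EOS 2 just below PGK 1, and the difference was -0.58 ± 0.23. CDK1, the mitotic kinase itself, had 14.82 and 14.97 in the LNCaP EOS arrays, against 14.56 and 15.07 in the LNCaP PGK arrays. Here the groups overlapped and the difference was 0.08 ± 0.18. PLK1, the Polo kinase of mitotic entry and spindle assembly, was at 7.48 and 7.50 in the LNCaP EOS arrays, against 7.69 and 7.92 in the LNCaP PGK arrays, a difference of -0.32 ± 0.37 without overlap. The 8 genes of this role had a median of -0.25, with 6 below 0; CCNB2, a B-type cyclin, was the highest of them at 0.11 ± 0.18.

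All 4 spindle checkpoint genes lay below 0 in LNCaP EOS cells, between -0.37 and -0.15. MAD2L1, which holds back CDC20 until chromosomes are attached, had values of 12.85 and 13.12 in the LNCaP EOS arrays, against 13.21 and 13.50 in the LNCaP PGK arrays. The groups did not overlap, and the difference was -0.37 ± 0.18. Of the 5 kinetochore and centromere genes, CENPE, a kinesin that moves chromosomes to the spindle equator, had 9.92 and 10.21 in the LNCaP EOS arrays, against 10.33 and 10.77 in the LNCaP PGK arrays, a difference of -0.48 ± 0.23. CENPA, the histone H3 variant of centromeres, differed by 0.21 ± 0.23 in the other direction, read from a probe set that may also bind related transcripts. The 3 genes of the chromosomal passenger complex (AURKB, its kinase; BIRC5, survivin; CDCA8, borealin) all lay below 0, between -0.39 and -0.07.

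Of the 9 spindle motors and microtubule proteins, 8 lay below 0, with a median of -0.27. The exception was NUSAP1, a protein that bundles spindle microtubules, with 13.08 and 13.34 in the LNCaP EOS arrays, against 12.91 and 13.11 in the LNCaP PGK arrays and a difference of 0.20 ± 0.16, the groups overlapping. In the cytokinesis group ANLN, the actin-binding scaffold of the cleavage furrow, had the lowest difference of the list, with 11.63 and 11.29 in the LNCaP EOS arrays, against 11.83 and 12.28 in the LNCaP PGK arrays. The difference was -0.59 ± 0.20 (adjusted p = 0.999, limma), and the distance was 0.20 within number 1 and 0.99 within number 2. CDC20, the activator of the anaphase-promoting complex, had 11.59 and 12.04 in the LNCaP EOS arrays, against 11.86 and 12.67 in the LNCaP PGK arrays. Only the PGK 2 value was well above the EOS values, and the difference was -0.45 ± 0.28. TOP2A, the topoisomerase that untangles sister chromatids, had 11.29 and 11.96 in the LNCaP EOS arrays, against 11.38 and 12.24 in the LNCaP PGK arrays, and MKI67, which coats mitotic chromosomes and is the Ki-67 antigen used by pathologists, had 9.30 and 9.95 in the LNCaP EOS arrays, against 9.25 and 9.73 in the LNCaP PGK arrays. For both genes the arrays numbered 2 were higher than those numbered 1 in each group, and the differences were -0.18 ± 0.40 for TOP2A and 0.13 ± 0.26 for MKI67.

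In the remaining genes the second PGK array was often the highest. KIF20A, a kinesin that carries the passenger complex to the central spindle, had 10.86 and 10.90 in the LNCaP EOS arrays, against 10.90 and 11.85 in the LNCaP PGK arrays. Its EOS arrays and PGK 1 lay close together and PGK 2 was far above them, so that the difference of -0.50 ± 0.29 came from that array. KIF4A, a chromosome-bound kinesin, had 10.58 and 10.60 in the LNCaP EOS arrays, against 10.63 and 11.24 in the LNCaP PGK arrays, and KIF2C, which depolymerises microtubules at kinetochores, had 11.28 and 11.65 in the LNCaP EOS arrays, against 11.39 and 12.26 in the LNCaP PGK arrays. The second PGK array was again the highest for each, with differences of -0.34 ± 0.24 for KIF4A and -0.36 ± 0.30 for KIF2C. BIRC5 had 12.08 and 12.06 in the LNCaP EOS arrays, against 12.27 and 12.64 in the LNCaP PGK arrays, and NDC80 had 11.37 and 11.58 in the LNCaP EOS arrays, against 11.73 and 12.02 in the LNCaP PGK arrays. For these genes PGK 1 also lay above both EOS arrays, by less than PGK 2 did, and the differences were -0.39 ± 0.20 for BIRC5 and -0.40 ± 0.20 for NDC80.

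HMMR, a microtubule-binding protein and hyaluronan receptor, had 12.91 and 13.03 in the LNCaP EOS arrays, against 13.22 and 13.43 in the LNCaP PGK arrays, a difference of -0.35 ± 0.18 without overlap. CCNA2, the A-type cyclin of S and G2 phase, had 11.28 and 11.29 in the LNCaP EOS arrays, against 11.38 and 11.69 in the LNCaP PGK arrays, a difference of -0.25 ± 0.19, also without overlap. TTK, the checkpoint kinase MPS1, had 10.70 and 10.66 in the LNCaP EOS arrays, against 10.75 and 10.92 in the LNCaP PGK arrays. Its EOS arrays were the lower ones, by 0.05 within number 1, and the difference was -0.15 ± 0.18. Securin, encoded by PTTG1, had 13.61 and 13.84 in the LNCaP EOS arrays, against 13.57 and 14.26 in the LNCaP PGK arrays, with the groups overlapping. ECT2 had 11.60 and 12.82 in the LNCaP EOS arrays, against 12.08 and 12.72 in the LNCaP PGK arrays, and KIF23, the motor of centralspindlin, had 9.06 and 9.93 in the LNCaP EOS arrays, against 9.37 and 9.97 in the LNCaP PGK arrays. In both of these cytokinesis genes the arrays numbered 2 were the higher ones in each group, and their differences of -0.19 ± 0.38 for ECT2 and -0.17 ± 0.33 for KIF23 were smaller than that gap. PRC1 stood at 0.07 ± 0.23. CDC25C, the phosphatase that activates CDK1, and RACGAP1, the partner of KIF23 in centralspindlin, had the differences nearest to 0 of the list.

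The LNCaP result rested in large part on 1 array. Without LNCaP PGK 2 the median of the 40 genes was -0.03, with 17 above 0 and 23 below, and without LNCaP PGK 1 it was -0.45. Of the 32 genes below 0 with all arrays, 9 had a value above 0 without LNCaP PGK 2. From the same probe sets and without LNCaP PGK 2, the difference was -0.39 for CCNB1, -0.20 for PLK1, -0.04 for CDC20, 0.33 for CDK1, 0.25 for TOP2A and 0.37 for MKI67. That of ANLN was -0.36 and that of AURKA -0.25, while KIF20A stood at -0.02, KIF4A at -0.04 and KIF2C at 0.07. Leaving out LNCaP PGK 2 sets both EOS arrays against PGK 1 alone, so that these values hold the gap between array numbers. Within number 1 the difference was -0.44 for CCNB1, -0.22 for PLK1, -0.27 for CDC20, 0.26 for CDK1, -0.09 for TOP2A and 0.05 for MKI67. Within number 1 the median was -0.09 (28 of 40 below 0), and within number 2 it was -0.39 (34 of 40 below 0). In bulk RNA, fewer cells in mitosis and less RNA of a gene per cell cannot be told apart.

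In DU145 the median difference for EOS against PGK was 0.11, with 35 of the 40 genes above 0 and 5 below, while 47.2% of all genes were above 0. With limma, none of the 40 genes passed the adjusted threshold, nor did any gene of all tested (0%), and the same counts of 0 were found with the replicate number as a block. At an unadjusted p under 0.05 there was 1 gene (2.5%), CENPF, against 1.58% of all genes, and with the block 3 genes (7.5%), CENPF, CENPE and ASPM, against 3.35%. Both EOS arrays lay above both PGK arrays for 12 genes (30%), against 13.2% of all genes. The reverse held for 1 gene, ANLN (2.5%), against 16% of all genes.

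The largest DU145 differences were those of kinetochore genes. CENPF, a large kinetochore protein made in G2, had 11.91 and 12.37 in the DU145 EOS arrays, against 11.47 and 11.80 in the DU145 PGK arrays. The EOS arrays were both higher, and the difference was 0.50 ± 0.21 (adjusted p = 0.99996, limma). CENPE had 11.18 and 11.09 in the DU145 EOS arrays, against 10.52 and 10.81 in the DU145 PGK arrays, a difference of 0.47 ± 0.23, again without overlap. ASPM, a spindle pole protein, had 12.39 and 12.40 in the DU145 EOS arrays, against 11.87 and 12.09 in the DU145 PGK arrays and a difference of 0.42 ± 0.25, with both EOS arrays higher. KIF14, a kinesin of late mitosis, stood at 0.30 ± 0.22 and BUB1B, the checkpoint protein BubR1, at 0.21 ± 0.16.

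All 8 entry kinases and cyclins and all 9 spindle proteins had values above 0 in DU145 EOS cells, with medians of 0.10 and 0.06. CCNB1 had 13.62 and 13.16 in the DU145 EOS arrays, against 13.27 and 13.21 in the DU145 PGK arrays, so that EOS 1 alone was high, and the difference was 0.15 ± 0.20. PLK1 had 8.35 and 7.37 in the DU145 EOS arrays, against 7.96 and 7.56 in the DU145 PGK arrays. The spread between its EOS arrays exceeded the difference of 0.09 ± 0.37. CDK1 differed by 0.16 ± 0.18, CDC20 by 0.31 ± 0.28 and MKI67 by 0.33 ± 0.26, and for each of these both EOS arrays were above both PGK arrays. TOP2A had 12.89 and 13.68 in the DU145 EOS arrays, against 12.78 and 13.57 in the DU145 PGK arrays. As in LNCaP, its arrays numbered 2 were the higher ones in both groups, and the difference was 0.11 ± 0.40.

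CDCA8 had 11.28 and 10.36 in the DU145 EOS arrays, against 10.74 and 10.63 in the DU145 PGK arrays. The first EOS array was the highest and the second the lowest, with a difference of 0.13 ± 0.30. AURKB had 11.32 and 10.90 in the DU145 EOS arrays, against 10.92 and 10.85 in the DU145 PGK arrays, so that EOS 1 was again the high array, and the difference was 0.23 ± 0.21. BIRC5, the third passenger gene, stood at 0.07 ± 0.20. In the kinetochore group NUF2, a partner of NDC80, differed by 0.23 ± 0.29, with EOS 1 just below PGK 2. CCNA2 had 12.02 and 11.73 in the DU145 EOS arrays, against 11.62 and 11.72 in the DU145 PGK arrays, without overlap but with EOS 2 only 0.02 above PGK 2, and the difference was 0.21 ± 0.19. TTK had 11.41 and 11.46 in the DU145 EOS arrays, against 11.16 and 11.30 in the DU145 PGK arrays, and differed by 0.21 ± 0.18, both EOS arrays being higher.

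The genes below 0 in DU145 were UBE2C, a ubiquitin-conjugating enzyme of the anaphase-promoting complex, at -0.16 ± 0.22, ANLN at -0.11 ± 0.20, MAD2L1 at -0.06 ± 0.18, CENPA at -0.06 ± 0.23 and ECT2, the exchange factor that activates RhoA at the furrow, at -0.02 ± 0.38. The DU145 median also differed between the numbers. It was 0.25 within number 1, with 37 genes above 0, and -0.01 within number 2, with 20 above 0. Leaving out 1 array at a time moved it between 0.06 and 0.19. The summed intensity of 7 fibroblast markers was 447 and 2855 in the DU145 EOS arrays, against 469 and 780 in the DU145 PGK arrays, with EOS 2 the high one through POSTN and COL3A1. In LNCaP it was 659 and 844 in the EOS arrays, against 559 and 337 in the PGK arrays. COL1A2, LUM and PDGFRB did not pass the filter, and the part of this signal in the differences was not tested. The sums of 5 leukocyte markers (184 to 400) and 4 endothelial markers (95.1 to 324) stayed low in all 10 arrays, and PTPRC, CD3D, CD14, CDH5 and KDR did not pass the filter.

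**Figure D3:**
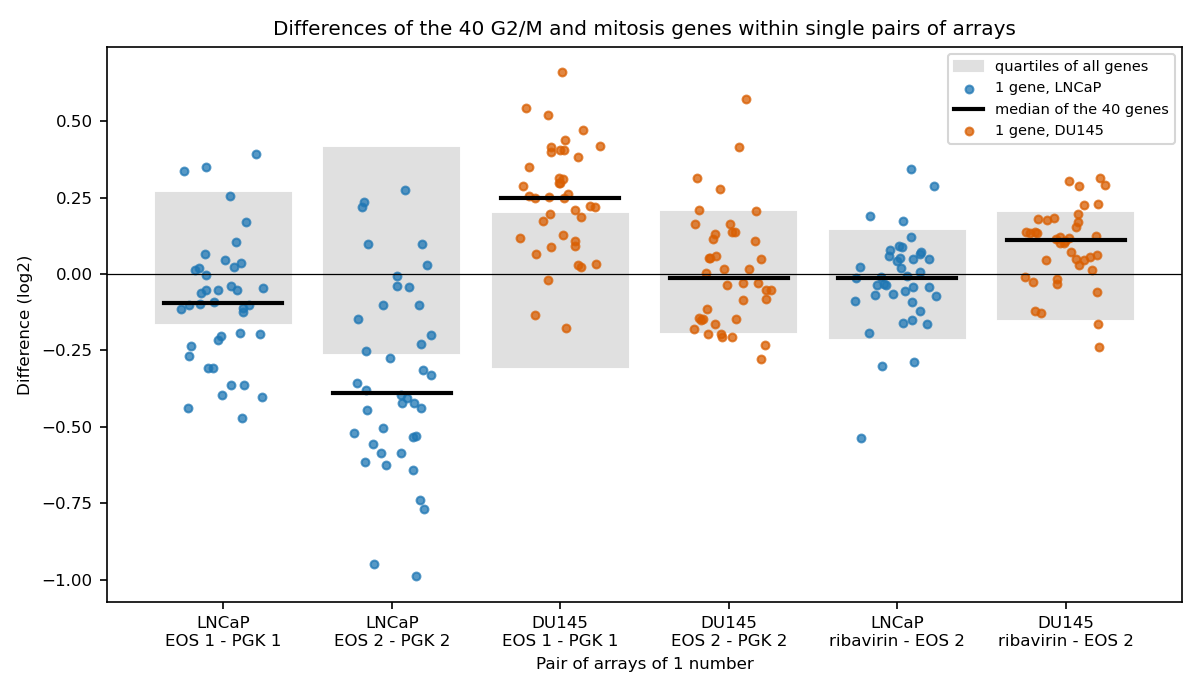
Each point is the log2 difference (vertical axis) of 1 of the 40 genes within a single pair of arrays (horizontal axis), blue for LNCaP and orange for DU145; black lines are medians of the 40 genes and grey boxes the quartiles of all genes. The medians are -0.09 and -0.39 for EOS against PGK in LNCaP and 0.25 and -0.01 in DU145, so that in each line 1 of the pairs carries most of the shift.

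The EOS differences of both lines were then compared directly, as LNCaP minus DU145. The median over the 40 genes was -0.36, with 3 above 0 and 37 below, against a median of 0.06 for all genes. None of the 40 genes and none of all genes passed the adjusted threshold of limma, with or without the replicate number as a block (0%). At an unadjusted p under 0.05 there were 2 genes (5%), CENPE and CCNB1, against 3.24% of all genes, and with the block 7 genes (17.5%), against 7.21%. Within number 1 the median of this difference was -0.32 and within number 2 it was -0.33, with 35 and 34 of the 40 genes below 0. Without LNCaP PGK 2 it was -0.14 (29 of 40 below 0), and without LNCaP PGK 1 it was -0.57. Without LNCaP PGK 2, the difference of the lines was -0.73 for CENPE, -0.53 for CCNB1, -0.35 for CDC20, -0.30 for PLK1, 0.17 for CDK1, 0.14 for TOP2A and 0.04 for MKI67. These values set LNCaP EOS arrays of both numbers against PGK 1 alone, and so hold the gap between array numbers. Within number 1 the difference of the lines was -1.06 for CENPE, -0.79 for CCNB1, -0.69 for CDC20, -0.60 for PLK1, 0.03 for CDK1, -0.20 for TOP2A and -0.20 for MKI67.

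CENPE had the largest difference between the lines, -0.95 ± 0.32 (adjusted p = 0.9999, limma). Its EOS minus PGK values within numbers 1 and 2 were -0.40 and -0.56 in LNCaP, against 0.66 and 0.28 in DU145. All 4 pairs thus had the sign of their line. CCNB1, next by moderated t, stood at -0.74 ± 0.28, with pair values of -0.44 and -0.74 in LNCaP, against 0.35 and -0.05 in DU145. The second DU145 pair of CCNB1 was close to 0. For CDC20 the difference was -0.76 ± 0.40, with pairs at -0.27 and -0.62 in LNCaP, against 0.42 and 0.20 in DU145. ASPM stood at -0.71 ± 0.36 and KIF14 at -0.57 ± 0.31.

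In all, 12 genes were below 0 in both LNCaP pairs and above 0 in both DU145 pairs (30%), against 5.81% of all genes. They were CCNA2, CDC20, BUB1, BUB1B, TOP2A, KIF20A, TPX2, CENPE, TTK, KIF14, NUF2 and ASPM. These were 3 of the 4 checkpoint genes, 3 of the 9 spindle proteins, 2 of the 5 kinetochore genes and 1 of the 8 entry genes, with 1 each from the cytokinesis, anaphase-promoting complex and chromosome structure groups and 0 of the 3 passenger genes. A second TOP2A probe set was above 0 in both LNCaP pairs, with 11.49 and 11.83 in the EOS arrays, against 11.40 and 11.74 in the PGK arrays. Further kept probe sets of CCNA2, BUB1 and KIF14 also departed from the pattern in part, while those of ASPM kept it. From the probe sets used, MKI67 and NUSAP1 were above 0 in all 4 pairs and ANLN below 0 in all 4. None of the other kept probe sets of these genes kept that sign in all 4 pairs. For EOS against PGK in LNCaP, those of MKI67 stood at -0.03, -0.01 and -0.003, against 0.13 from the probe set used. The genes with a difference above 0 were CENPA at 0.27 ± 0.33, NUSAP1 at 0.16 ± 0.22 and CCNB2 at 0.04 ± 0.25, followed by UBE2C at -0.04 ± 0.31 and PRC1, which bundles the central spindle, at -0.06 ± 0.33. The differences of the remaining genes named throughout were -0.41 ± 0.52 for PLK1, -0.09 ± 0.25 for CDK1, -0.29 ± 0.57 for TOP2A and -0.20 ± 0.37 for MKI67.

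**Figure D4:**
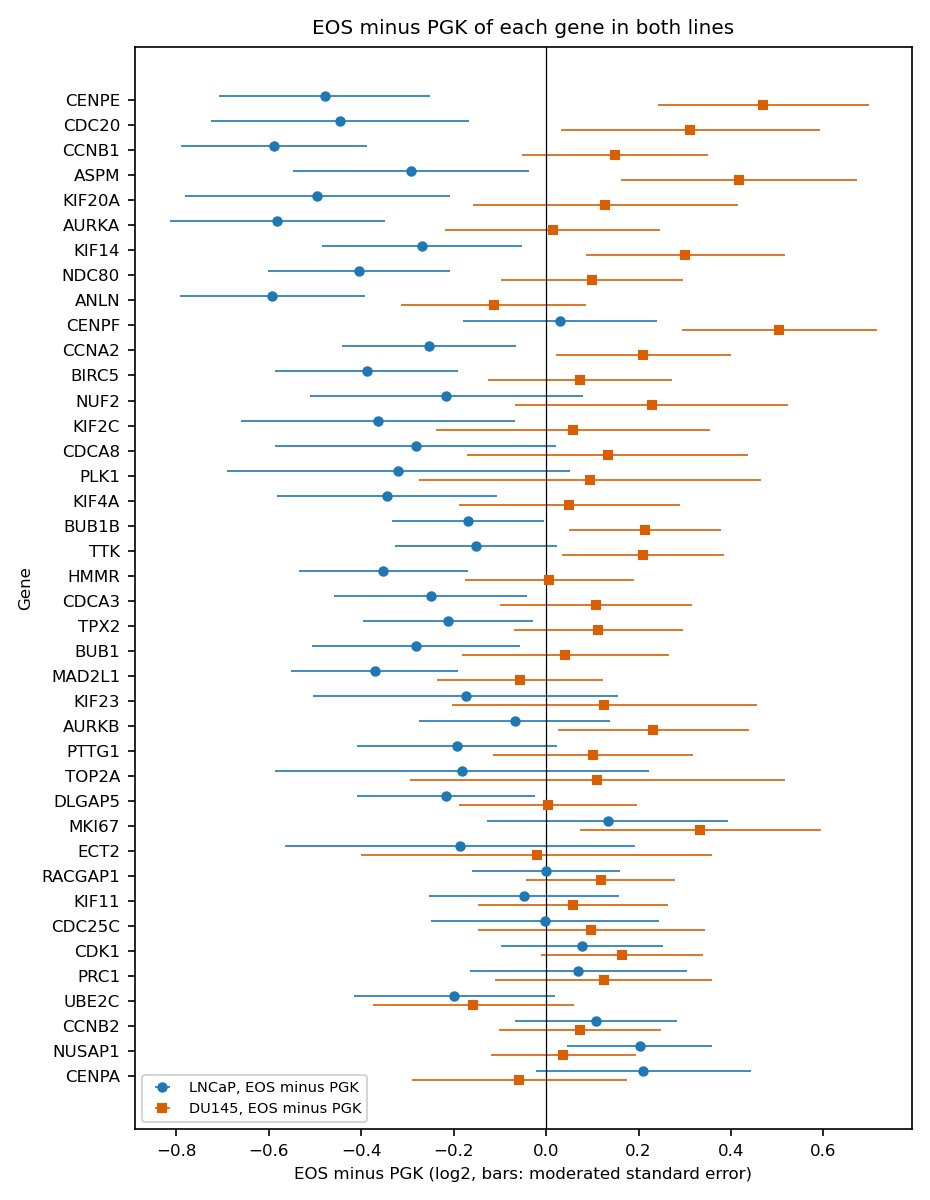
EOS minus PGK (horizontal axis, log2, with bars of 1 moderated standard error) is plotted for each of the 40 genes (vertical axis), with blue circles for LNCaP and orange squares for DU145, ordered by the difference between the lines. The LNCaP circle lies left of the DU145 square for 37 genes, and the bars of many genes overlap.

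Ribavirin treatment was read from 1 array in each line, set against the 2 EOS arrays; the spread of the ribavirin group was taken to be that of the others. Since these EOS arrays also enter the EOS comparison above, the values are not independent of it. None of the 40 genes passed the adjusted threshold of limma in LNCaP, in DU145 or in the mean of both, and neither did any gene tested (0% in each, with and without the block). Of the 40 genes, 0 had an unadjusted p under 0.05 in each, against 2.02% of all genes in LNCaP, 1.75% in DU145 and 1.77% in the mean of both. With the block there was 1 gene in LNCaP, AURKB (2.5%, against 2.83% of all genes), and none in DU145 (2.54% of all genes) or in the mean (2.38%). The median of the 40 genes was 0.06 in LNCaP, with 28 above 0, and -0.01 in DU145, with 19 above 0.

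The gene with the lowest moderated t in LNCaP was AURKB, the kinase of the chromosomal passenger complex, with 9.82 in the LNCaP ribavirin array, against 10.35 and 10.36 in the LNCaP EOS arrays numbered 1 and 2. The ribavirin array was below both, and the difference was -0.53 ± 0.25. In DU145 AURKB had 10.87 in the DU145 ribavirin array, against 11.32 and 10.90 in the DU145 EOS arrays numbered 1 and 2, a difference of -0.24 ± 0.25, with EOS 2 close to the ribavirin value. The mean of both lines was -0.39 ± 0.18. TPX2, which activates AURKA on spindle microtubules, had 10.84 in the LNCaP ribavirin array, against 11.20 and 11.13 in the LNCaP EOS arrays numbered 1 and 2, and 12.07 in the DU145 ribavirin array, against 12.53 and 12.19 in the DU145 EOS arrays numbered 1 and 2. It was below both EOS arrays in each line, and the mean difference was -0.31 ± 0.16.

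CDC20 had 12.33 in the LNCaP ribavirin array, against 11.59 and 12.04 in the LNCaP EOS arrays numbered 1 and 2, and its difference of 0.51 ± 0.34 was the highest by moderated t in LNCaP. In DU145 the difference of CDC20 was -0.04 ± 0.34. KIF20A was highest by moderated t in DU145 at 0.41 ± 0.35. TOP2A had 13.81 in the DU145 ribavirin array, against 12.89 and 13.68 in the DU145 EOS arrays numbered 1 and 2. The ribavirin value was close to EOS 2 and far from EOS 1, so that the difference of 0.53 ± 0.50 held a gap between the array numbers. CCNB1 differed by 0.07 ± 0.25 in LNCaP and -0.17 ± 0.25 in DU145, and CDK1 by -0.04 ± 0.21 in LNCaP and 0.12 ± 0.21 in DU145. PLK1 differed by 0.06 ± 0.45 in LNCaP and -0.29 ± 0.45 in DU145, and MKI67 by 0.17 ± 0.32 in LNCaP and -0.04 ± 0.32 in DU145. Each of these 8 differences was smaller than its standard error.

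Next by moderated t in LNCaP were ASPM at -0.32 ± 0.31, BUB1B at -0.19 ± 0.20 and UBE2C at -0.23 ± 0.27 below 0. Above 0 were ECT2 at 0.52 ± 0.46, KIF23 at 0.39 ± 0.41, DLGAP5, a spindle assembly factor, at 0.21 ± 0.24 and CCNA2 at 0.19 ± 0.23. Against EOS 2 alone, ECT2 stood at -0.09 and KIF23 at -0.04, and against EOS 1 alone at 1.12 and 0.82, so that these differences also held a gap between the array numbers. In DU145, among the most extreme by moderated t, MAD2L1 stood at -0.29 ± 0.22, CDCA8 at -0.31 ± 0.37 and NDC80, a kinetochore protein that binds microtubules, at -0.19 ± 0.24, while ANLN stood at 0.27 ± 0.24, CDC25C at 0.32 ± 0.30 and BUB1 at 0.27 ± 0.27. None of these passed the test. When the ribavirin arrays were set only against the EOS array of their own number, the median of the 40 genes was -0.01 in LNCaP (18 above 0) and 0.11 in DU145 (31 above 0). The summed intensity of the fibroblast markers was 3199 in the DU145 ribavirin array, against 447 and 2855 in the DU145 EOS arrays, and 717 in the LNCaP ribavirin array, against 659 and 844 in the LNCaP EOS arrays. Its part in the ribavirin differences was not tested.

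The PGK controls of both lines were compared to place these differences beside the distance between the lines. Of the 40 genes, 15 passed the adjusted threshold (37.5%), against 33.1% of all genes, a share near that of the whole array. At an unadjusted p under 0.05 there were 18 (45%), against 43.2% of all genes. In LNCaP 12 genes were lower (30%), against 17.9% of all genes, and 3 were higher (7.5%), against 15.2%. With the replicate number as a block within each line, the fitted difference is the one at number 1, not the mean over both numbers. Its median was -0.42, against -0.43 between the PGK arrays numbered 1. In that fit 19 of the 40 passed (36.1% of all genes), and 23 (57.5%) at the unadjusted p, against 45.4%. Without the block, the median difference, LNCaP minus DU145, was -0.31, with 9 genes above 0, while that of all genes was -0.04. All 5 LNCaP arrays lay below all 5 DU145 arrays for 17 genes (42.5%), against 22% of all genes, and above them for CDK1, HMMR and MAD2L1 (7.5%), against 20.4%.

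MKI67 had 9.25 and 9.73 in the LNCaP PGK arrays, against 11.96 and 11.82 in the DU145 PGK arrays, and 9.25 to 9.95 over the 5 LNCaP arrays, against 11.82 to 12.24 over the 5 DU145 arrays. It was lower in LNCaP by 2.40 ± 0.26 on the log2 scale, 5.28-fold (adjusted p = 0.000256, limma), and the ranges were far apart. The size depended on the probe set. Its further kept probe sets were also lower in LNCaP, but by less, with differences of -1.99, -0.95 and -0.84. TOP2A had 11.38 and 12.24 in the LNCaP PGK arrays, against 12.78 and 13.57 in the DU145 PGK arrays, a difference of -1.36 ± 0.40 (adjusted p = 0.0316, limma). Its LNCaP values were lower in every array despite the gap between numbers. Of the cytokinesis genes, ANLN had 11.83 and 12.28 in the LNCaP PGK arrays, against 13.42 and 13.54 in the DU145 PGK arrays, and differed by -1.42 ± 0.20, and KIF23 differed by -1.59 ± 0.33. All 6 genes of that role had values below 0, of which these 2 passed.

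Among the spindle proteins, KIF11, the motor that pushes spindle poles apart, had 10.37 and 10.35 in the LNCaP PGK arrays, against 11.32 and 11.81 in the DU145 PGK arrays, and differed by -1.20 ± 0.21. ASPM differed by -1.36 ± 0.25, TPX2 by -0.87 ± 0.18 and NUSAP1 by -0.51 ± 0.16, all lower in LNCaP. HMMR went the other way, with 13.22 and 13.43 in the LNCaP PGK arrays, against 12.25 and 12.25 in the DU145 PGK arrays. It was higher in LNCaP in all arrays, by 1.08 ± 0.18 (adjusted p = 0.00267, limma).

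The genes of mitotic entry were split. CDK1 was higher in LNCaP, with 14.56 and 15.07 in the LNCaP PGK arrays, against 13.91 and 14.03 in the DU145 PGK arrays and a difference of 0.85 ± 0.18 (adjusted p = 0.00685, limma). Its partner CCNB1 had 13.01 and 13.42 in the LNCaP PGK arrays, against 13.27 and 13.21 in the DU145 PGK arrays, a difference of -0.03 ± 0.20 that did not pass. A second CCNB1 probe set was lower in LNCaP, with a difference of -0.76. Its values were 10.15 to 10.94 over the LNCaP arrays, against 11.18 to 11.74 over the DU145 arrays, so that the level of CCNB1 between the lines depended on the probe set. AURKA was lower in LNCaP at -0.94 ± 0.23, while PLK1 at 0.05 ± 0.37 did not pass. In the checkpoint group MAD2L1 was higher in LNCaP, with 13.21 and 13.50 in the LNCaP PGK arrays, against 12.55 and 12.47 in the DU145 PGK arrays and a difference of 0.85 ± 0.18. BUB1, the kinase that recruits the checkpoint to kinetochores, was lower at -0.83 ± 0.22, and so was BUB1B at -0.56 ± 0.16. CENPA was lower at -0.86 ± 0.23, whereas NUF2, at 0.80 ± 0.29, and CDC20, at -0.21 ± 0.28, did not pass.

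**Figure D5:**
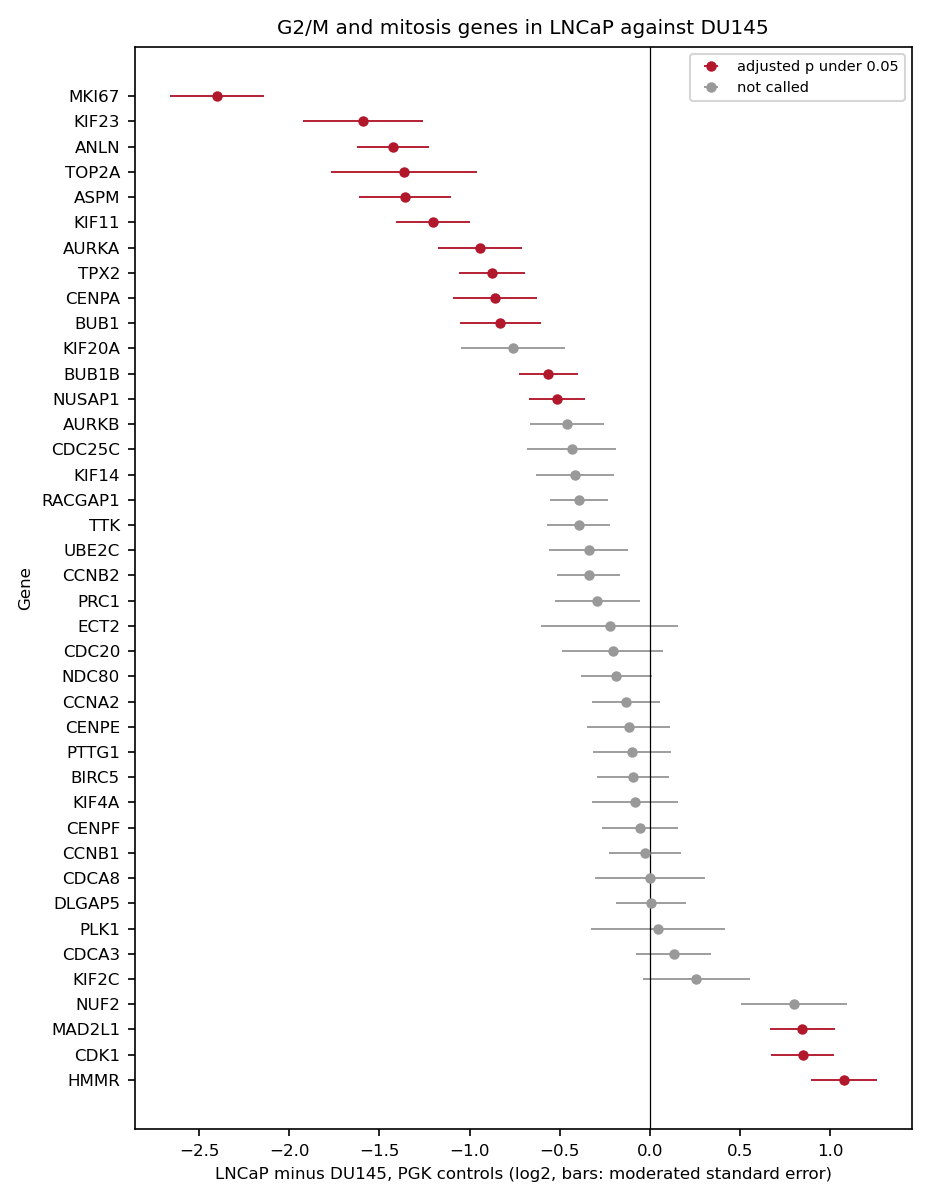
LNCaP minus DU145 in the PGK controls (horizontal axis, log2, with bars of 1 moderated standard error) is plotted for the 40 genes (vertical axis), red where the adjusted p was under 0.05 and grey otherwise. MKI67 lies farthest to the left at -2.40 and HMMR farthest to the right at 1.08.

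These calls depended on single PGK arrays for several genes. Without DU145 PGK 1, 8 of the 15 remained called, and without DU145 PGK 2 also 8. BUB1B, NUSAP1, AURKA, BUB1 and CENPA were lost in both cases, CDK1 and TPX2 also without DU145 PGK 1, and KIF23 and MAD2L1 also without DU145 PGK 2. Without LNCaP PGK 1, 10 of the 15 remained and TOP2A was among those lost. Without LNCaP PGK 2, 14 remained. The median of the 40 genes was -0.11 without LNCaP PGK 1 and -0.46 without LNCaP PGK 2. In a fit with no intensity trend BUB1B, NUSAP1 and TOP2A did not pass, and from the mean of all probe sets of a gene ASPM and AURKA did not.

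Other genes of the cell cycle were read from lists of the same kind. Of 30 further mitosis genes, 20 lay below 0 for EOS against PGK in LNCaP (median -0.10) and 25 above 0 in DU145 (median 0.20), and 27 of 30 had a difference between the lines below 0; none passed the test in these comparisons. The 15 condensin, cohesin and separase genes had medians of -0.07 in LNCaP and 0.15 in DU145, and the 16 genes of G1/S and replication -0.09 in LNCaP and 0.08 in DU145. Of 15 subunits and modulators of the anaphase-promoting complex, 14 could be tested, with medians of -0.08 in LNCaP and 0.07 in DU145. The 12 regulators of the G2/M programme had medians of -0.09 in LNCaP and 0.03 in DU145. FOXM1, the forkhead factor that activates G2/M genes, differed for EOS against PGK by 0.03 ± 0.21 in LNCaP and 0.24 ± 0.21 in DU145, and MYBL2, which encodes B-MYB, by 0.04 ± 0.28 in LNCaP and 0.41 ± 0.28 in DU145. None of these lists held a gene that passed the test for EOS in either line.

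In the comparison of the lines in PGK controls, the 30 further mitosis genes had a median of -0.03, with 15 above 0 and 15 below. Of these, 2 were called higher in LNCaP and 5 lower. The 15 condensin, cohesin and separase genes had a median of 0.02, with 4 called higher and 1 lower. The median of -0.31 for the main list of mitosis genes was thus not shared by either list. Of the 12 regulators, 1 was called higher in LNCaP and 1 lower, against 15.2% and 17.9% of all genes. The lower one was NFYB, which encodes a subunit of NF-Y, at -1.43 ± 0.20 (adjusted p = 0.00105, limma). FOXM1 was higher in LNCaP, with 10.84 and 11.10 in the LNCaP PGK arrays, against 9.90 and 10.17 in the DU145 PGK arrays. The difference of FOXM1 was 0.94 ± 0.21 (adjusted p = 0.00986, limma). MYBL2 at 0.65 ± 0.28 did not pass. Of the 7 inhibitors of mitotic or cell cycle entry that could be tested (of 9), 2 were higher in LNCaP, against 15.2% of all genes: CDKN1A, the p21 inhibitor of cyclin-dependent kinases, at 1.58 ± 0.36 (adjusted p = 0.00986, limma) and PKMYT1, a kinase that inhibits CDK1, at 1.03 ± 0.26. WEE1, the other such kinase, at 0.36 ± 0.23, and CDKN1B, the p27 inhibitor, at -0.15 ± 0.17, did not pass. In the G1/S list 5 of 16 genes were higher in LNCaP and 1 was lower, against 15.2% of all genes higher and 17.9% lower; PCNA, the sliding clamp of DNA replication, differed by 0.67 ± 0.14 and CCNE2, a cyclin of S phase entry, by 1.27 ± 0.30, both higher in LNCaP.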

How the data were processed

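Per the labels' protocols, total RNA from each sample was isolated on spin columns and 100 ng was used to prepare biotin-labelled RNA for the array. The authors deposited linear intensities, 1 per probe set. MAS5 and affy are named, per the submitters' processing notes, and the background correction and scaling target are not given in the sources used here. The deposited intensities of the 4 arrays numbered 1 and the 6 numbered 2 were on different scales. Each array was therefore scaled to a 2% trimmed mean of 500 and taken as log2(intensity + 16), a scale on which changes of dim genes appear too small. Of 54675 probe sets, 62 were controls, 41091 had 1 gene symbol in the platform annotation (41037 matched to RefSeq by Entrez number), 1801 had several and 11721 had none. A probe set was kept if it lay above its array's median in at least 2 of the 10 arrays (33451 kept), and each gene was read from its kept probe set of highest mean, which left 14313 genes. The 40 genes had 79 probe sets, 72 of them kept, and 18 genes had only 1. The probe sets used for PTTG1 and CENPA are of a type that may bind related transcripts.

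All 10 arrays entered 1 fit of 6 group means in limma 3.58.1 (R 4.3.3, with an intensity trend and 4 residual degrees of freedom), with Benjamini-Hochberg adjustment over all genes, for 7 comparisons. The fit was tested on simulated data. Sequences were searched in Python 3.11.15. The number of arrays limits the precision, and detection calls were not used. Same-numbered arrays of EOS and PGK deviated together (r over all genes 0.48 in LNCaP and 0.12 in DU145, with 1 pair of numbers in each line). Over the 40 genes r was 0.54 in LNCaP and 0.72 in DU145. The main fit does not use this pairing, and the number was used as a block in an alternative fit with 2 residual degrees of freedom. That the number marks a shared batch is read from the deposited scale and the ACTB ratio, and the labels do not say so. Other alternatives were pseudocounts of 1 and 64, quantile normalization, unscaled values, no filter, the mean of all probe sets, no intensity trend and leaving out each array.

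The 40 genes and the other lists were chosen with earlier results of these data known. In every comparison CCNB1, CDK1, PLK1, CDC20, TOP2A and MKI67 are named, with the genes that pass the threshold, or otherwise the 5 of largest moderated t in each direction; further genes of the list are named to show a role. Medians and counts over the list are descriptions with no test.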

Additional observations from a re-analysis of the deposited data

How the results depend on the processing

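None of the 40 genes and no gene at all was called for EOS or ribavirin in any setting that kept all 10 arrays; 3 genes outside the list were called in LNCaP without PGK 1 and 4 without EOS 1. No sign of a called value reversed. The replicate block left the medians for EOS against PGK as they were (-0.36 for LNCaP minus DU145) but gave ribavirin medians of -0.061 in LNCaP and -0.018 in the mean of both lines. The block changed no call for EOS or ribavirin, and for the PGK controls of the lines it added AURKB, CDC20, KIF20A and NUF2. For the lines the blocked value is the difference at number 1, and these added calls are thus not for the same quantity. The difference of the EOS effects had medians of -0.35 with a pseudocount of 64, -0.33 with quantile normalization and -0.31 with the mean of all probe sets. The mean ribavirin median was 0.031 with quantile normalization and 0.0019 with the mean of all probe sets.

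Unscaled values keep the difference in deposited scale inside each group. They gave a median of -0.081 for EOS in DU145 (0.10 relative to all genes), -0.16 for the difference of the lines (-0.38 relative to all genes), and -1.02 in LNCaP, -1.13 in DU145 and -1.06 in the mean for ribavirin, where the median of all genes was -0.99, -0.98 and -0.98. For the PGK controls they called 57 genes in place of 4733, with 0 of the 40 genes higher and 0 lower.

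Leaving out 1 array at a time gave 0 to 4 genes called for EOS in LNCaP, and medians of the 40 genes of -0.45 to -0.029 for EOS in LNCaP, 0.06 to 0.19 in DU145, -0.57 to -0.14 for the difference, -0.01 to 0.10 for ribavirin in LNCaP, -0.09 to 0.11 in DU145 and 0.0083 to 0.094 in their mean. For the PGK controls it gave 2497 to 5079 genes called (fewest without DU145 PGK 2), 2 to 4 of the 40 higher, 6 to 12 lower, and medians of -0.46 to -0.11. Where an EOS or PGK array is left out, the groups compared no longer hold the same array numbers. The cause of these changes was not tested, beyond the smaller number of arrays in each fit.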

Other observations

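The choice of probe set was checked on the genes that have others. For 22 of the 40 genes, 32 further probe sets were kept. Their EOS difference, LNCaP minus DU145, had a median of -0.25, and 29 of 32 had the sign of the probe set used. For the difference between the lines in PGK controls, 28 of 32 had the same sign, with a median of -0.43. In LNCaP alone the EOS median of these further probe sets was -0.18 (22 of 32 with the same sign), and in DU145 it was 0.10 (23 of 32). For ribavirin the signs matched less often, in 18 of 32 in LNCaP (median -0.04) and 21 of 32 in DU145 (median 0.005). Only 14 of 32 matched in the mean of both lines (median -0.04), so that the ribavirin medians of the list depended on the choice of probe set.

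The gap between array numbers in TOP2A was smaller in another of its probe sets. The values used were 12.89 and 13.68 in DU145 EOS 1 and 2, against 12.78 and 13.57 in DU145 PGK 1 and 2, while a second TOP2A probe set had 13.46 and 13.61 in the EOS arrays, against 13.17 and 13.44 in the PGK arrays. For EOS against PGK in LNCaP, that second probe set differed by 0.09, against -0.18 from the probe set used. A second probe set of CCNB1 had 10.67 and 10.17 in the LNCaP EOS arrays, against 10.94 and 10.43 in the LNCaP PGK arrays, so that EOS was lower by a similar amount within both numbers and LNCaP PGK 2 was not the highest array. For CDK1, all 4 probe sets had higher values in each LNCaP array than in any DU145 array.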
